A study of Mus musculus with 4 samples.

Results

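The genes described here are 9 genes of the complement system, C3, C7, Cfb, C1qa, C1qb, C1qc, Masp1, Cd55 and C3ar1, taken by symbol from the 32285 genes counted in single-nucleus RNA-sequencing (snRNA-seq) of mouse lungs. Lungs came from 2 WT mice, of strain C57/BL6J, and from 2 VEcad-TRF2DN-Tg mice, by the study's methods on the same background, all 8 to 9 weeks old. In VEcad-TRF2DN-Tg mice the VE-cadherin promoter drives a dominant-negative TRF2, a protein that caps telomeres, so the transgene is meant for endothelial cells (ECs) and the other lung cells carry it without being its target. By the study's methods the mice were male and had been kept under chronic hypoxia, which both groups shared. Each mouse gave 1 library, and with 2 mice per genotype the p-values of the genotype tests below measure the spread between these animals. Tests that compare cell classes have mouse as a term. Their p-values measure the spread left within these 4 libraries, pooled over classes, and not the spread between animals.

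Complement is a cascade of plasma proteins that tags microbes and damaged cells. C1q, or the lectin pathway protease MASP-1, starts it, the C3 convertases, in which factor B (Cfb) is the protease of the alternative pathway, cleave C3, and the terminal components, among them C7, assemble into a pore. CD55 takes the convertases apart on the surface of the host's own cells, and C3AR1 is the receptor of the C3a fragment. In the lung these proteins come from plasma and from resident cells, with C1q made chiefly by macrophages.

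Barcodes with at least 1500 unique molecular identifiers (UMIs) numbered 26933 and 38543 in WT mice 1 and 2 and 25269 and 44000 in VEcad-TRF2DN-Tg mice 1 and 2, and 57375 nuclei among them were placed into 19 cell classes by marker genes that include no member. Those placed numbered 7803 and 9060 in WT mice 1 and 2 and 18863 and 21649 in VEcad-TRF2DN-Tg mice 1 and 2. A larger part of the barcodes was thus placed in VEcad-TRF2DN-Tg mice, and the part of this gap in the class shares below was not tested. Median UMIs per nucleus ran from 1891 to 5702 over classes and mice, and 176 to 475 barcodes were shared by any pair of libraries. One class was led by Gm15883, Itprid1 and Bmpr1b and keeps that name. Its nuclei were those closest to the club cell profile whose club markers fell below the marker cut, so club cells and this class are not independent. The class called club cells below holds the nuclei of that profile that passed the cut. It was led by Tacr1, Gm37245 and Bpifb1, of which only Bpifb1 was a club marker, so the name rests on the marker cut. Barcodes with 300 to 800 UMIs were taken as empty droplets, which hold RNA set free from broken cells. They numbered 7688 and 10371 in WT mice 1 and 2 and 18387 and 2732 in VEcad-TRF2DN-Tg mice 1 and 2. Such free RNA made up an estimated 23.2% to 67.0% of the UMIs of a class in a mouse. Terf2, the mouse gene for TRF2, stood at 52.3 and 49.8 counts per 1000000 UMIs (CPM) in the blood ECs of WT mice 1 and 2 and at 45.0 and 50.2 CPM in those of VEcad-TRF2DN-Tg mice 1 and 2, which does not check the transgene if its sequence is not counted under that symbol. Levels below are CPM of the summed UMIs of a class in 1 mouse, given in the order WT mouse 1, WT mouse 2, VEcad-TRF2DN-Tg mouse 1 and VEcad-TRF2DN-Tg mouse 2.

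The members fell into distinct cell classes. C7 was a fibroblast gene, Masp1 an aerocyte capillary EC gene, C3ar1 and C1qb were highest in monocytes and interstitial macrophages, C3 and Cfb in mesothelial nuclei, and Cd55 in B cells, followed by the class led by Gm15883, club cells and ciliated cells. A class was called higher in a gene when its level passed an adjusted p of 0.05 against the mean of the other classes (edgeR quasi-likelihood test with mouse as a term, Benjamini-Hochberg adjustment over all genes), which 15.7% of all gene and class pairs did. The members passed in 20 of their 171 pairs, a smaller share than that background, 4 for C3, 4 for Cd55, 3 for Cfb, 3 for Masp1, 2 for C7 and 1 each for C1qa, C1qb, C1qc and C3ar1. Between genotypes, 117 of the 171 pairs had enough counts for a test within the class. Of these 29 were higher in VEcad-TRF2DN-Tg mice, where 6.36% of all gene and class pairs were, 3 were lower, where 1.11% were, and 85 were not called. C3 was among the higher ones in 16 of 19 classes, Cfb in 13 of 17, and the lower ones were C7 in 3 of 17 classes, neither fibroblast class among them. The empty droplets were called in the same directions for the 3 genes, but each of those calls was lost without VEcad-TRF2DN-Tg mouse 1 and without VEcad-TRF2DN-Tg mouse 2.

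C1qa, C1qb and C1qc encode the 3 chains of C1q and lie side by side on the minus strand of mouse chromosome 4 (build GRCm38), at chr4:136895917-136898803, chr4:136880129-136886187 and chr4:136889804-136893065. Promoters, 250 bases before and 50 after the annotated start, were taken from RefSeq (GRCm38.p6), which matched 6 of the 9 members; C1qa, Cfb and Masp1 had none in the table. The promoters of C1qb (chr4:136886151-136886450) and C1qc (chr4:136892865-136893164) are shown because both hold AGGAAGT, the core letters bound by PU.1 and other ETS factors of myeloid cells, on either strand. The match is in capitals, lies on the reverse strand and begins at base -53 in C1qb and -195 in C1qc, counted from the annotated start in the direction of transcription.
C1qb: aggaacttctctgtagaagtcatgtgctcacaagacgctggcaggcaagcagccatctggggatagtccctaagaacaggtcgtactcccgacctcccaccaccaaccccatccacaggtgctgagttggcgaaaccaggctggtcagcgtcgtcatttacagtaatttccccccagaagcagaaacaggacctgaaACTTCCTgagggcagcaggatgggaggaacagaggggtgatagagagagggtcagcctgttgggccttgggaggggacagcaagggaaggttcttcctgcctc
C1qc: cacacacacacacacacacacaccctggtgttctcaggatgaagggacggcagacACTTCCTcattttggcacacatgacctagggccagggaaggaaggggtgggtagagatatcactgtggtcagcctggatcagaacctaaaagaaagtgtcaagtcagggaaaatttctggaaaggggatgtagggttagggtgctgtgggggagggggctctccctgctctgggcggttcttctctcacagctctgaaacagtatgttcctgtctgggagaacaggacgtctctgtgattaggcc
Of 32851 promoters of the same length, 9.35% held this motif on either strand. A match is a description of the letters and not evidence of binding.

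By the mean of the 4 mice, C1q transcripts were highest, among the classes, in nuclei classed as monocytes and interstitial macrophages. These nuclei numbered 95, 124, 138 and 190 in the 4 mice. C1qb stood there at 50.6, 88.1, 105 and 57.0 CPM, above the empty droplets of every mouse, which held 10.98, 63.5, 29.8 and 39.0 CPM. It was 2.31 log2 units above the mean of the other classes (SE 0.20, adjusted p = 3.4e-16). C1qc stood at 47.2, 53.9, 77.5 and 39.6 CPM and was 1.81 log2 units above the others (SE 0.24, adjusted p = 2.8e-09), and C1qa at 23.6, 101, 80.6 and 79.2 CPM and 1.49 log2 units above (SE 0.21, adjusted p = 6.5e-09). Values of other classes overlapped this class in C1qa (up to 101.5 CPM, venous ECs) and C1qc (up to 95.9 CPM, arterial ECs). For C1qb no other class overlapped, the highest value being 47.0 CPM in T and NK cells. The levels of C1qa and C1qc in monocytes and interstitial macrophages did not exceed those of the empty droplets in all 4 mice. WT mouse 2 had the highest free C1q of the 4 libraries. After thinning each nucleus to 1500 UMIs, a C1qb UMI was found in 7.37%, 10.48%, 12.3% and 8.42% of these nuclei, with exact 95% binomial intervals reaching from 3.01% to 18.99%. In alveolar fibroblasts, which do not make C1q, the shares were 0.478%, 4.91%, 1.38% and 2.06% (median depths 2663 to 4294 UMIs, against 2174 to 5354 in the monocyte and interstitial macrophage class). Unthinned, the shares in the class were 14.7%, 36.3%, 17.4% and 14.7%. Alveolar macrophages, the large resident phagocytes of the air space, held only 3.5, 20.2, 10.53 and 14.7 CPM of C1qb, below the empty droplets of their own mouse.

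The C1q chains were not called between genotypes in any class, by edgeR or DESeq2; at an unadjusted p under 0.05, 3 of 14 classes passed for C1qa, 0 of 13 for C1qb and 1 of 11 for C1qc in edgeR. In monocytes and interstitial macrophages the log2 differences (VEcad-TRF2DN-Tg minus WT) were 0.25 for C1qa (SE 0.52, adjusted p = 0.834), 0.17 for C1qb (SE 0.43, adjusted p = 0.87) and 0.18 for C1qc (SE 0.43, adjusted p = 0.861). Most of the tested values were below 0, with medians over the tested classes, this one included, of -1.06 for C1qa in 14 classes, -0.29 for C1qb in 13 and -1.11 for C1qc in 11. Free RNA differed between the libraries in the same genes. In the empty droplets C1qa stood at 23.8, 177, 27.4 and 57.5 CPM and C1qc at 12.1, 94.5, 15.6 and 27.2 CPM, so that WT mouse 2 lay far above WT mouse 1 and the groups overlapped. Without WT mouse 2 the log2 difference of C1qa in the empty droplets turned from -1.08 to 0.98. Without WT mouse 1, 29 class values of the 3 chains were called lower in VEcad-TRF2DN-Tg mice, against 0 with all 4 mice, and without WT mouse 2, 1 class was called higher for C1qa and 3 for C1qb. The summed markers of alveolar macrophages in the empty droplets were also higher in the second mouse of each group, at 5122, 10400, 6333 and 11760 CPM (20 of 20 found, none at 0, 11 of 20 higher in both VEcad-TRF2DN-Tg mice and 2 lower), and those of interstitial macrophages stood at 1954, 2439, 4763 and 4204 CPM (18 of 18 found, none at 0, 5 higher and 3 lower). Their part in the C1q values was not tested.

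Masp1 (chr16:23449417-23520815, minus strand) encodes the MBL-associated serine protease 1 and was highest in 1 of the EC classes. Of its 138 UMIs in all classes, 42 came from aerocyte capillary ECs, the large EC type that spreads over the alveolus for gas exchange. Their level was 21.9, 15.2, 24.8 and 18.05 CPM, made of 8, 7, 11 and 16 UMIs, and every mouse lay above every value of the next class, adventitial fibroblasts. General capillary ECs, the second capillary EC type, held 1.2, 1.1, 1.2 and 0.8 CPM. The aerocyte level was 5.53 log2 units above the mean of the other classes (SE 0.39, adjusted p = 1.9e-19), a fitted value that depends on classes with no Masp1 UMI at all. Adventitial and alveolar fibroblasts also passed the test, on 4 and 9 UMIs, but not without WT mouse 1. After thinning, 1.96%, 2.73%, 2.69% and 2.92% of aerocyte nuclei had a Masp1 UMI (exact 95% binomial intervals from 0.238% to 7.76%), against 0.137%, 0%, 0.0261% and 0.049% of alveolar type 2 nuclei, where the interval in WT mouse 2, with a count of 0, reached 0.206%. Median depths were 2108 to 3381 UMIs in aerocytes and 2398 to 4176 UMIs in alveolar type 2 nuclei, and unthinned shares in aerocytes were 4.74% to 6.86%. The groups overlapped in aerocytes. With all 4 mice, the counts as deposited and the filter on low counts, Masp1 had too few counts for a genotype test in any class. After subtraction of free RNA 1 class could be tested in edgeR, with 0 at an unadjusted p under 0.05. Masp1 overlaps Gm45338 and Rtp4 on the opposite strand, and whether the counting used strand is not given in the sources used here.

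C3, the central component, lies at chr17:57203970-57228136 on the minus strand. Its promoter (chr17:57228087-57228386, minus strand, RefSeq, GRCm38.p6) is shown because C3 was called between genotypes in more classes than any other member. TTGCNNAA, letters bound by C/EBP factors, was found once at base -45 and TATAAA once at base 15, both in capitals.
C3: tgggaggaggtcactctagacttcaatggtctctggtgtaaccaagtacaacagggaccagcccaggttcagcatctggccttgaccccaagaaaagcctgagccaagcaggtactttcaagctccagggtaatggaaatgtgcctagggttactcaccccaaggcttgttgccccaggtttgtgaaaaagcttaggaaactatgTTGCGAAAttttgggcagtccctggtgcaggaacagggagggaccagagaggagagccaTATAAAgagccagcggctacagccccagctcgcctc
The C/EBP letters were found in 10.8% of the 32851 promoters and TATAAA in 13.6%, on either strand. ACGTG, the core of the hypoxia response element, was in 19.6% of the promoters and in none of the 4 printed here.

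C3 was highest in mesothelial nuclei, the cells that cover the lung surface, with 446, 396, 1135 and 763 CPM. This was 1.16 log2 units above the mean of the other classes (SE 0.071, adjusted p = 2.6e-24), and T and NK cells, adventitial fibroblasts and B cells passed the same test by 0.35, 0.32 and 0.32 log2 units. Free RNA made up 36.1% to 67.0% of the UMIs of B cells and 40.1% to 59.0% of those of T and NK cells. After subtraction of free RNA the adjusted p was 0.385 in T and NK cells and 0.0854 in B cells, in B cells it was 0.0522 without WT mouse 1, and in adventitial fibroblasts it was 0.062, 0.279 and 0.0566 without VEcad-TRF2DN-Tg mouse 1, WT mouse 1 and WT mouse 2 and 0.0629 with barcodes of more than 1 class kept. Ciliated nuclei were the lowest, at 97.7, 174, 300.4 and 287 CPM. Free RNA carried more C3 than nearly every class: the empty droplets held 409.9, 593, 1243 and 1186 CPM, and 75 of 76 class values lay below those of their own mouse, the exception being the mesothelial nuclei of WT mouse 1. The median class value was 0.397 of that in the empty droplets. After subtraction of the estimated free RNA, mesothelial nuclei kept 460, 288, 1101 and 619 CPM, while general capillary ECs kept 0, 0, 123 and 63.6 CPM.

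**Figure D1:**
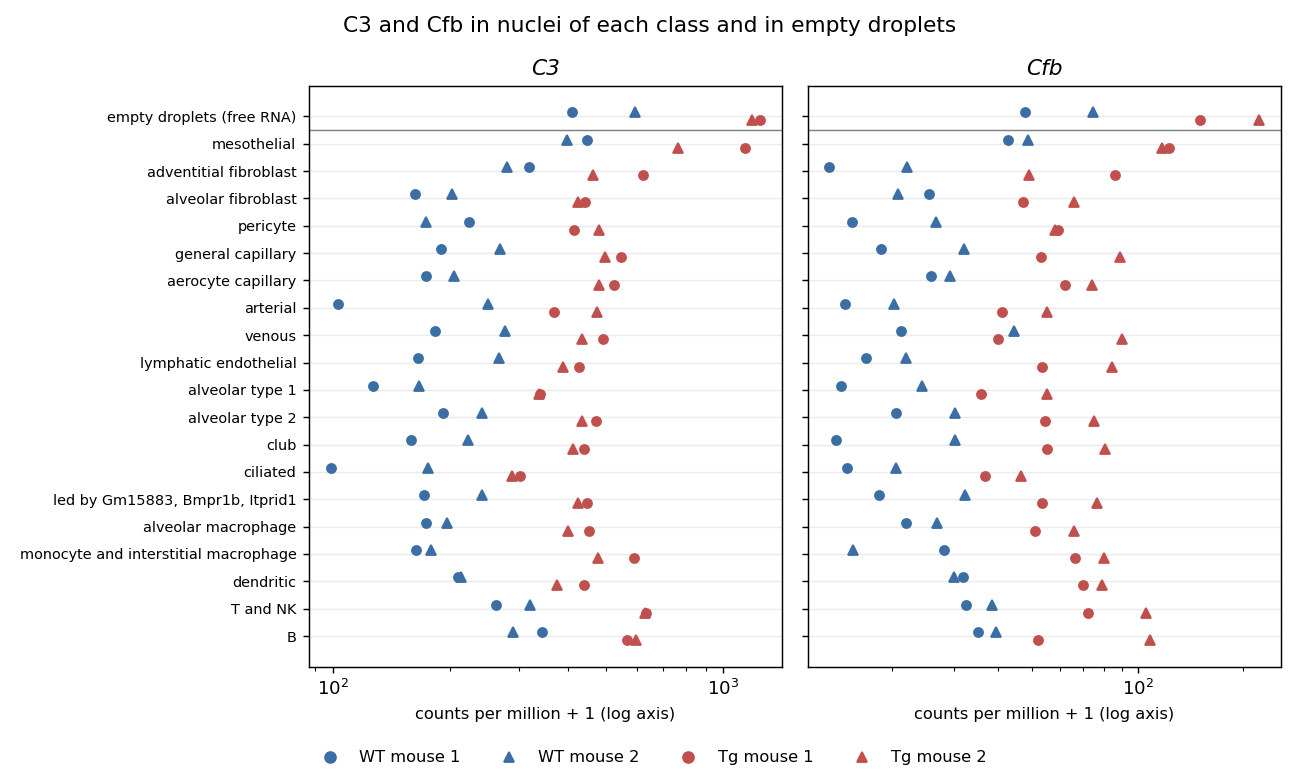
C3 (left) and Cfb (right) in CPM + 1, on a log axis, in the empty droplets and in each cell class, with 1 point per mouse. Mesothelial nuclei lead the classes in both genes, the VEcad-TRF2DN-Tg points of C3 lie above the WT points in all 19 classes, and the empty droplets show the same order.

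C3 was higher in VEcad-TRF2DN-Tg mice in 16 of 19 classes (edgeR quasi-likelihood test, Benjamini-Hochberg adjustment over all genes of the class), and both VEcad-TRF2DN-Tg mice lay above both WT mice in all 19. The log2 differences ran from 0.95 to 1.70 with a median of 1.15, and adventitial fibroblasts, ciliated nuclei and lymphatic ECs did not pass. In mesothelial nuclei, C3 rose from 421 ± 35.0 to 949 ± 263 CPM (mean ± SD, n = 2 mice), a log2 difference of 1.18 (SE 0.26, adjusted p = 0.0489). In general capillary ECs, a class that the VE-cadherin promoter targets, it rose from 227 ± 55.2 to 521 ± 35.7 CPM, a log2 difference of 1.22 (SE 0.22, adjusted p = 0.0118). The change in a class did not differ from the mean change of the others in any of the 19 classes (lowest adjusted p = 0.577, 1 class at an unadjusted p under 0.05, differences of -0.39 to 0.50 log2 units).

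In the empty droplets C3 was 1.53 log2 units higher in VEcad-TRF2DN-Tg mice (SE 0.41, adjusted p = 0.0384). That call was lost without any 1 of the 4 mice, with log2 differences of 1.28 to 1.81 and adjusted p-values of 0.0541 to 0.205. In those droplets 14.5% of 15180 genes were higher and 11.0% lower. Free RNA is pooled from all cells, and more cells of a type and more RNA per cell cannot be told apart in it. After subtraction of free RNA, 1.44% of all gene and class pairs differed between genotypes in either direction. Member pairs tested then numbered 15 for Cd55, 13 each for C3 and C7, 5 for C1qc and 4 each for C1qa and C1qb. Cfb had 3, C3ar1 had 2 and Masp1 had 1. Of these member pairs 1 was called, a share near that of all pairs. It was C3 in general capillary ECs (edgeR, adjusted p = 0.026), where both WT mice came to 0. The share subtracted in that class was 47.3% and 48.3% in WT mice 1 and 2. It was lower, 37.9% and 38.5%, in VEcad-TRF2DN-Tg mice 1 and 2, and the part of this gap in the call was not tested. After subtraction C3 could be tested in 13 classes, of which 10 had an unadjusted p under 0.05. In mesothelial nuclei the subtracted log2 difference was 1.10 (SE 0.37, adjusted p = 0.183). Without VEcad-TRF2DN-Tg mouse 1, 4 classes were called instead of 16, and in mesothelial nuclei the log2 difference was 0.81 (adjusted p = 0.262).

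Mesothelial nuclei made up 4.09%, 7.21%, 8.49% and 10.1% of the nuclei in classes, and the summed mesothelial markers in the empty droplets stood at 610, 940, 1737 and 1950 CPM (10 of 10 found, none at 0, 8 higher in both VEcad-TRF2DN-Tg mice than in both WT mice). Markers of some other cells moved the same way there: those of club cells, the secretory cells of the airway, stood at 22231, 19873, 147320 and 54330 CPM (12 of 12 found, 9 higher in both VEcad-TRF2DN-Tg mice, none lower) and those of alveolar type 2 cells at 8026, 9865, 23147 and 22538 CPM (15 of 15 found, 8 higher and 4 lower). Other lists had more markers lower than higher. Those of T and NK cells stood at 514, 608, 159 and 430 CPM (23 of 23 found, 1 higher and 10 lower). Those of ciliated cells stood at 2721, 1105, 1697 and 948 CPM (18 of 18 found, 0 higher and 8 lower). Their part in the C3 and Cfb differences was not tested.

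Cfb, the protease of the alternative C3 convertase (chr17:34856374-34862518, minus strand), followed C3 over the classes. It was highest in mesothelial nuclei, with 41.7, 47.6, 122 and 116 CPM, 1.05 log2 units above the mean of the other classes (SE 0.086, adjusted p = 1.2e-17), and T and NK cells (0.39) and B cells (0.35) also passed. In B cells the adjusted p was 0.403, 0.0648 and 0.249 without VEcad-TRF2DN-Tg mouse 2, WT mouse 1 and WT mouse 2 and 0.0699 with barcodes of more than 1 class kept, and in T and NK cells it was 0.0979 without VEcad-TRF2DN-Tg mouse 2 and 0.13 after subtraction of free RNA. The empty droplets held 46.6, 73.3, 149 and 221 CPM, above all 76 class values of the same mouse. In mesothelial nuclei Cfb rose from 44.6 ± 4.16 to 119 ± 4.04 CPM, a log2 difference of 1.41 (SE 0.17, adjusted p = 0.0133), and the groups did not overlap. It was higher in 13 of the 17 classes tested, with log2 differences of 1.15 to 2.02 and a median of 1.38. Venous ECs, B cells, adventitial fibroblasts and the class led by Gm15883 did not pass.

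In the empty droplets Cfb was 1.84 log2 units higher in VEcad-TRF2DN-Tg mice (SE 0.29, adjusted p = 0.0178), with an adjusted p of 0.202 without VEcad-TRF2DN-Tg mouse 1 and 0.0595 without VEcad-TRF2DN-Tg mouse 2. After subtraction of free RNA, mesothelial nuclei kept 39.5, 33.6, 113 and 80.4 CPM, with a log2 difference of 1.32 (adjusted p = 0.0776), and 0 of the 3 classes that could be tested passed in edgeR, with 2 at an unadjusted p under 0.05. No class was called for a change that differed from the others (edgeR, lowest adjusted p = 0.78, 0 at an unadjusted p under 0.05). The number of classes called fell to 3 without VEcad-TRF2DN-Tg mouse 1 and to 1 without VEcad-TRF2DN-Tg mouse 2, and in mesothelial nuclei the adjusted p was 0.066 without the first.

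**Figure D2:**
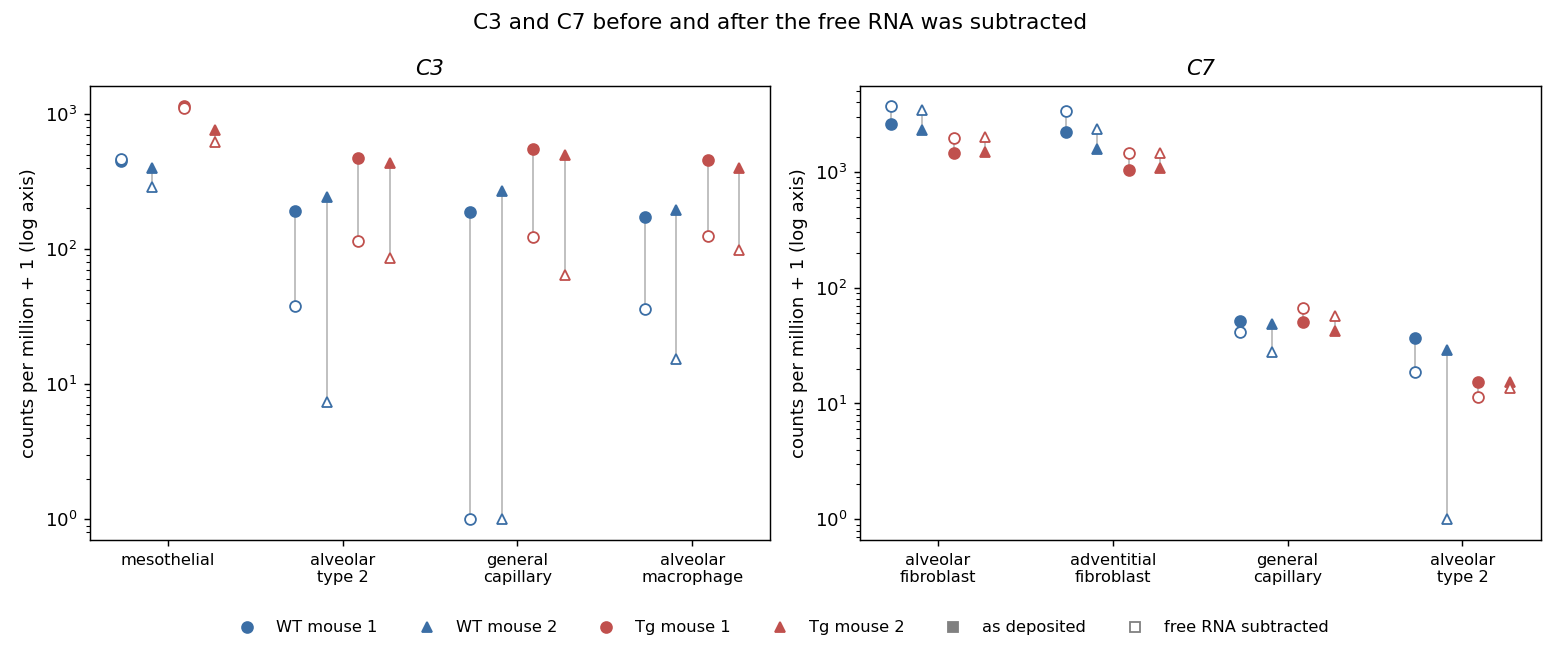
C3 (left) and C7 (right) in CPM + 1, on a log axis, in 4 classes each, with filled points for the counts as deposited and open points after subtraction of the estimated free RNA, joined for each mouse. C3 stays near its level in mesothelial nuclei and falls to 0 in the general capillary ECs of both WT mice, and C7 in fibroblasts stands higher afterwards because the counts left are scaled to the total left.

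C7 (chr15:4988762-5063740, minus strand), which joins C5b and C6 as the membrane attack complex forms, was highest in fibroblasts. Its promoter (chr15:5063724-5064023, minus strand, RefSeq, GRCm38.p6) is shown for its TATAAA, on the reverse strand, in capitals and beginning at base -6. It held none of the other letters searched.
C7: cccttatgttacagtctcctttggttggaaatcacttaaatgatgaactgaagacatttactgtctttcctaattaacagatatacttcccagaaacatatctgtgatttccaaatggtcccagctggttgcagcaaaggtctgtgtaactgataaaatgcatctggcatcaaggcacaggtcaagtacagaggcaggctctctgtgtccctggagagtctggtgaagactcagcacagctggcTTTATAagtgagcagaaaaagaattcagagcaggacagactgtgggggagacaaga

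Alveolar fibroblasts, the fibroblasts of the alveolar wall, held 2593, 2280, 1440 and 1468 CPM. Adventitial fibroblasts, of the cuffs around vessels and airways, held 2221, 1581, 1034 and 1085 CPM. These levels were 5.82 (SE 0.092, adjusted p = 1.7e-60) and 5.26 (SE 0.12, adjusted p = 1.9e-48) log2 units above the mean of the other classes, and up to 79.5 times the level of the empty droplets. Of 76 class values 25 lay above the empty droplets of their own mouse, and these fibroblasts were the only classes above in all 4 mice. After thinning, 85.6%, 79.6%, 74.9% and 74.4% of alveolar fibroblast nuclei had a C7 UMI (exact 95% binomial intervals from 70.3% to 90.1%), against 5.60%, 4.98%, 1.93% and 2.55% of alveolar type 2 nuclei. Unthinned shares were 92.8%, 91.6%, 87.8% and 88.0%, at median depths of 2663 to 4294 UMIs in alveolar fibroblasts and 2398 to 4176 UMIs in alveolar type 2 nuclei.

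**Figure D3:**
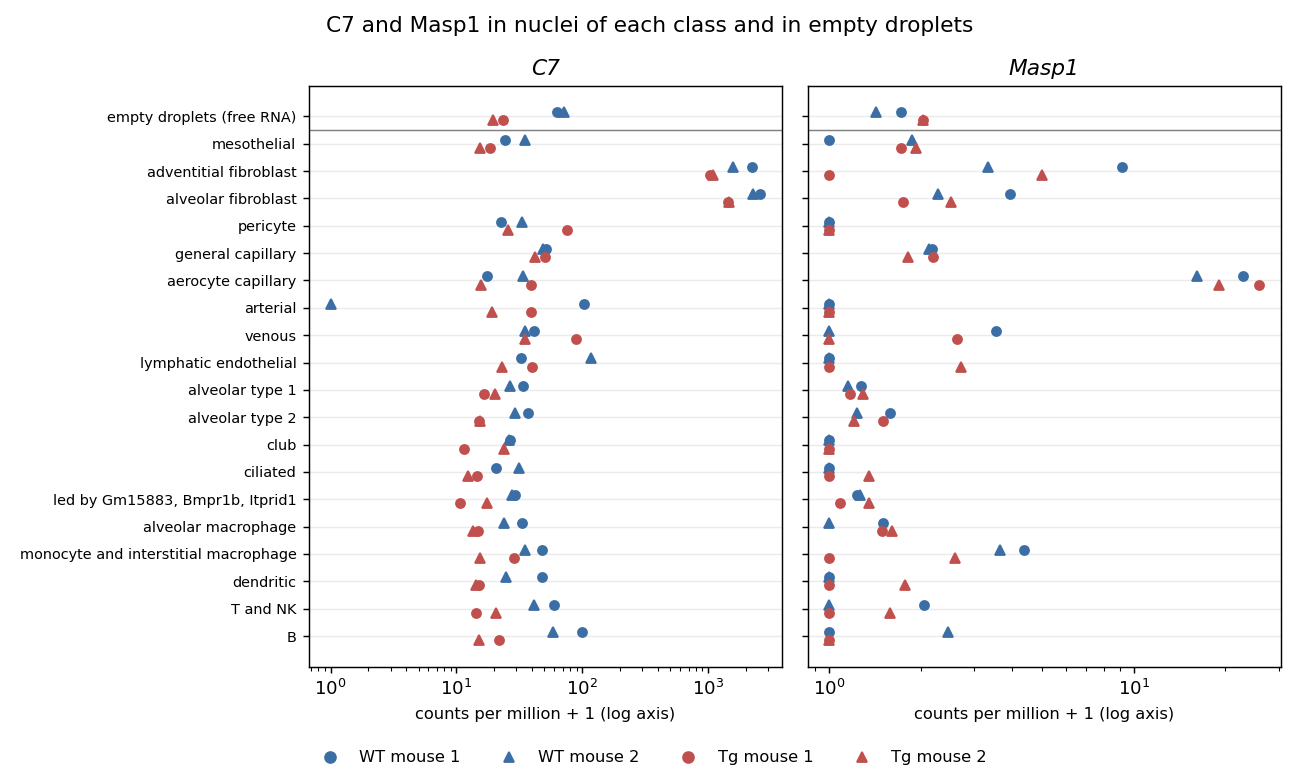
C7 (left) and Masp1 (right) in CPM + 1, on a log axis, in the empty droplets and in each cell class, with 1 point per mouse. C7 stands at 1034 to 2593 CPM in alveolar and adventitial fibroblasts, and Masp1 stands apart in aerocyte capillary ECs, at 15.2 to 24.8 CPM.

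Both fibroblast classes held less C7 in both VEcad-TRF2DN-Tg mice than in both WT mice, without overlap, but neither passed the test. In alveolar fibroblasts the levels were 2437 ± 221 CPM in WT and 1454 ± 20.1 CPM in VEcad-TRF2DN-Tg mice (mean ± SD, n = 2 mice), a log2 difference of -0.75 (SE 0.24, adjusted p = 0.0993). The alternatives were on both sides of the threshold: DESeq2 gave -0.77 (adjusted p = 0.0356) and the edgeR fit without WT mouse 2 gave -0.89 (adjusted p = 0.0124), while leaving out any other mouse gave adjusted p-values of 0.102 to 0.434. In adventitial fibroblasts the levels were 1901 ± 453 and 1060 ± 36.7 CPM, a log2 difference of -0.72 (SE 0.30, adjusted p = 0.221). With no filter on low counts both classes passed, at -0.77 (adjusted p = 0.0151) in alveolar and -0.90 (adjusted p = 0.0261) in adventitial fibroblasts. Subtraction of free RNA gave -0.88 in alveolar fibroblasts (adjusted p = 0.0537) and -0.89 in adventitial fibroblasts (adjusted p = 0.285).

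The classes in which C7 did pass were ones with little of it. It was lower in VEcad-TRF2DN-Tg mice in B cells, with a log2 difference of -2.01 (SE 0.41, adjusted p = 0.0103), in T and NK cells, with -1.44 (SE 0.34, adjusted p = 0.0345), and in alveolar type 2 cells, with -1.15 (SE 0.21, adjusted p = 0.0279). In 15 of the 17 classes tested the difference was below 0. The empty droplets moved the same way: 62.3, 70.5, 22.5 and 18.5 CPM, a log2 difference of -1.39 (SE 0.27, adjusted p = 0.0212), with an adjusted p of 0.202 without VEcad-TRF2DN-Tg mouse 1 and 0.0703 without VEcad-TRF2DN-Tg mouse 2. After subtraction of free RNA 0 of 13 classes were called in edgeR, with 4 at an unadjusted p under 0.05, and the difference was -2.36 in B cells (SE 0.82, adjusted p = 0.32), -0.69 in T and NK cells (SE 1.5, adjusted p = 0.872) and 0.33 in alveolar type 2 cells (SE 1.42, adjusted p = 0.912), where it turned. Without VEcad-TRF2DN-Tg mouse 1, 0 classes were called (12 at an unadjusted p under 0.05), without VEcad-TRF2DN-Tg mouse 2, 1, without WT mouse 1, 5, and without WT mouse 2, 7. General capillary ECs held 50.9, 48.0, 49.8 and 41.3 CPM, a log2 difference of -0.10 (SE 0.22, adjusted p = 0.78). The change in a class did not differ from the others in any class (lowest adjusted p = 0.43, 3 at an unadjusted p under 0.05).

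Fibroblasts were also a smaller part of the nuclei placed in classes in VEcad-TRF2DN-Tg mice, where a larger part of the barcodes was placed. Alveolar fibroblasts made up 2.68%, 3.15%, 2.31% and 2.24% of nuclei in classes and adventitial fibroblasts 0.743%, 0.927%, 0.408% and 0.273%. The summed alveolar fibroblast markers in the empty droplets were 2371, 2343, 1724 and 1865 CPM (14 of 14 found, none at 0, 6 lower in both VEcad-TRF2DN-Tg mice and 2 higher). The adventitial fibroblast markers were higher in more cases than lower, at 808, 1078, 1040 and 1157 CPM (17 of 17 found, none at 0, 9 higher in both VEcad-TRF2DN-Tg mice and 2 lower), and the markers of fibroblasts in general stood at 1207, 2237, 1632 and 2360.0 CPM (16 of 16 found, 4 higher and 2 lower). Their part in the C7 differences was not tested.

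Cd55 (chr1:130439027-130462744, minus strand), the decay-accelerating factor, was highest in B cells, with 298, 182, 306 and 239.8 CPM, in the class led by Gm15883, with 286, 229.97, 201 and 214 CPM, in club cells, a class led by Tacr1, Gm37245 and Bpifb1, with 289, 241, 155 and 174 CPM, and in ciliated cells, with 229, 193, 193 and 204 CPM. These 4 classes were 1.31, 1.29, 1.12 and 1.17 log2 units above the mean of the others and lay above the empty droplets, at 207, 159.7, 110 and 122 CPM, in every mouse, with neighbours in that order overlapping. Alveolar macrophages were the lowest, 0.91 log2 units below the mean of the others (SE 0.11, adjusted p = 2.5e-11), and dendritic cells, alveolar type 1 cells, alveolar fibroblasts and the general capillary, aerocyte and venous ECs were also called lower.

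After thinning, a Cd55 UMI was found in 35.1%, 22.7%, 33.5% and 29.98% of B cell nuclei (exact 95% binomial intervals from 19.2% to 45.6%) and in 12.8%, 7.94%, 6.75% and 7.18% of alveolar macrophage nuclei, the class lowest in Cd55. Between genotypes Cd55 was not called in any of the 19 classes by edgeR or DESeq2 (3 at an unadjusted p under 0.05 in edgeR, 1 in DESeq2), although 17 of the log2 differences were below 0 (median -0.42). Without WT mouse 2, 3 classes were called (9 at an unadjusted p under 0.05), and without VEcad-TRF2DN-Tg mouse 2, 1 was. The nearest to the threshold was club cells, at 265 ± 33.6 CPM in WT and 164 ± 13.6 CPM in VEcad-TRF2DN-Tg mice, a log2 difference of -0.68 (SE 0.21, adjusted p = 0.0629), and the empty droplets differed by -0.43 (SE 0.25, adjusted p = 0.237). Cd55 overlaps Gm16083 on the opposite strand at its start.

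C3ar1 (chr6:122847138-122856161, minus strand), the C3a receptor, was highest in the same class as C1q. Monocytes and interstitial macrophages held 23.6, 44.7, 31.0 and 41.2 CPM, from 7, 34, 10 and 26 UMIs, and every mouse lay above every value of any other class. The level was 3.41 log2 units above the mean of the other classes (SE 0.26, adjusted p = 1.9e-18) and above the empty droplets of every mouse, at 6.5, 9.8, 1.98 and 6.16 CPM. After thinning, 1.05%, 6.45%, 4.35% and 6.32% of these nuclei had a C3ar1 UMI (exact 95% binomial intervals from 0.0266% to 12.3%), against 0.273%, 1.01%, 0.209% and 0.416% of alveolar type 2 nuclei. The genotypes overlapped, with a log2 difference of 0.06 (SE 0.44, adjusted p = 0.961), and none of the 7 classes tested was called by edgeR or DESeq2, with 0 at an unadjusted p under 0.05 in either.

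**Figure D4:**
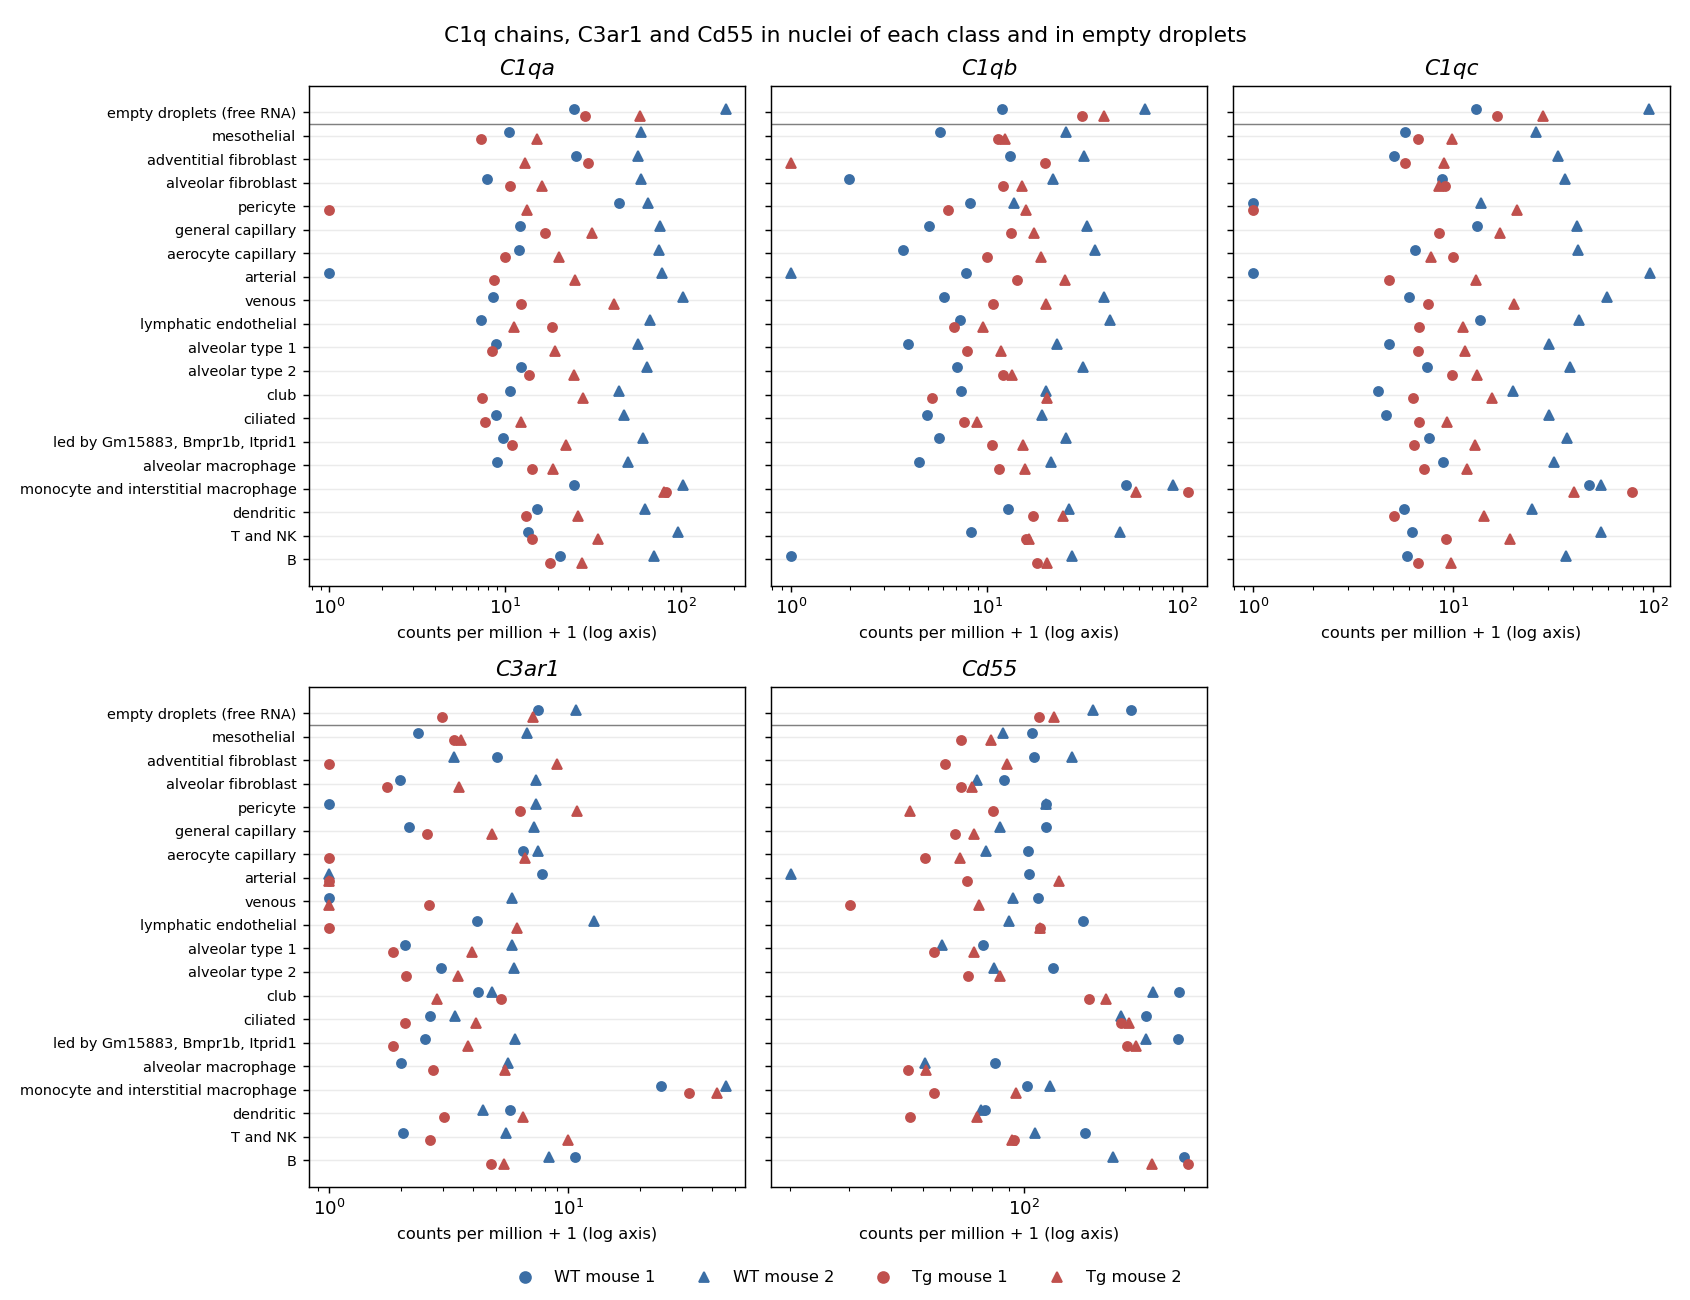
C1qa, C1qb, C1qc, C3ar1 and Cd55 in CPM + 1, on log axes, in the empty droplets and in each cell class, with 1 point per mouse. By class means, the C1q chains and C3ar1 are highest in monocytes and interstitial macrophages, where the genotypes overlap. Single values of C1qa and C1qc in other classes overlap that class. Cd55 is highest in B cells, the class led by Gm15883, club cells and ciliated cells.

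The genes closest to each member were found by Pearson's r of log2(CPM + 1) over the 19 class means, a description over classes that share libraries and free RNA. Abca8a, Pdgfra, Rarres2, Apoe and F13a1, named below, were among the markers that placed the nuclei. Their course over the classes was thus set in part by the placing. C7 was most like Abca8a (r = 0.988), Pdgfra (0.978) and Unc5c (0.974), of which Pdgfra encodes the fibroblast PDGF receptor. C3 was most like Igfbp6 (0.942), C2 (0.938) and Rarres2 (0.929), and Cfb like Slurp1 (0.909), C3 (0.900) and Igfbp6 (0.891). C1qa was most like Apoe (0.906), C1qb (0.889) and Mybbp1a (0.865), C1qb like Prg4 (0.942), Itgam (0.933) and Clec4a1 (0.903), and C1qc like Fcna (0.918), F13a1 (0.846) and Gbp2b (0.844). Prg4 (0.913) and Ms4a14 (0.901) were among the genes closest to C3ar1, and Masp1 was most like 4931403E22Rik (0.824), Shisa9 (0.823) and Hlx (0.801), and Cd55 like Gm15675 (0.980), Gm42722 (0.890) and 2010007H06Rik (0.868).

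The other complement genes, 47 in a list set by role, were read in the same fits. Of these 34 could be tested between genotypes in at least 1 class, and of 403 gene and class pairs 68 were higher and 4 lower in VEcad-TRF2DN-Tg mice, against the 6.36% and 1.11% of all pairs. The calls fell on few genes. Clu, which encodes the complement inhibitor clusterin, was higher in 18 of 19 classes (median log2 difference 1.83). C4b, of the classical C3 convertase, was higher in 16 of 19 (median 1.87), Serping1, the C1 inhibitor, in 13 of 18 (2.36), and C2, the partner of C4b, in 9 of 17 (1.501). C1qbp in general capillary ECs, Colec11 in alveolar type 2 cells, Masp2 in the class led by Gm15883, C5ar1 in venous ECs and C1s1 in B cells were called higher in 1 class each. The 4 lower calls were Csmd1 in alveolar type 2 cells and in the class led by Gm15883, Itgam in alveolar macrophages and Susd4 in club cells.

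In the empty droplets 10 of 32 of these genes tested were higher and 2 lower, where 14.5% of all genes were higher and 11.0% lower. Clu, C4b, Serping1 and C2 were among the higher ones. Without VEcad-TRF2DN-Tg mouse 1 none of these 4 was called there, and without VEcad-TRF2DN-Tg mouse 2 Clu and Serping1 were. Clu rose there from 50.02 and 91.0 to 292 and 319.6 CPM, C4b from 59.4 and 134 to 393 and 435 CPM, Serping1 from 22.7 and 30.1 to 226 and 161 CPM and C2 from 22.7 and 64.1 to 131 and 138 CPM. After subtraction of free RNA, 1 of 3 classes tested was called for Clu, 2 of 11 for C4b, 0 of 15 for Serping1 and 0 of 9 for C2, and for Serping1 and C2 8 and 4 classes had an unadjusted p under 0.05 in edgeR. Without VEcad-TRF2DN-Tg mouse 1 the calls were 6 for Clu, 10 for C4b, 6 for Serping1 and 2 for C2.

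Serping1 and C2 differed between classes in their change. Serping1 stood at 22.7, 30.1, 226 and 161 CPM in the empty droplets and at 156, 138, 174 and 171 CPM in alveolar fibroblasts, its highest class. The log2 difference between genotypes in that class was 0.24 (SE 0.20, adjusted p = 0.49). The change there was 1.82 log2 units below the mean change of the other classes (a difference of -1.82, SE 0.16, adjusted p = 3.4e-12), a test that 0.247% of all gene and class pairs passed in either direction. Adventitial fibroblasts (-1.67), mesothelial nuclei (-1.11) and ciliated cells (-0.72) also changed less than the others. The change of C2 in mesothelial nuclei differed by -0.84 log2 units from the mean change of the others (SE 0.20, adjusted p = 0.0259). Serping1 in alveolar fibroblasts passed without any 1 of the 4 mice, but without VEcad-TRF2DN-Tg mouse 1 or 2 the adjusted p was 0.0848 or 0.0745 for Serping1 in adventitial fibroblasts, 0.0507 or 0.216 in mesothelial nuclei, 0.682 or 0.737 in ciliated cells, and 0.287 or 1 for C2 in mesothelial nuclei. Without WT mouse 1 it was 0.685 for Serping1 in ciliated cells and 0.437 for C2 in mesothelial nuclei. These 5 contrasts could not be estimated after subtraction of free RNA, and its part in them was not tested.

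**Figure D5:**
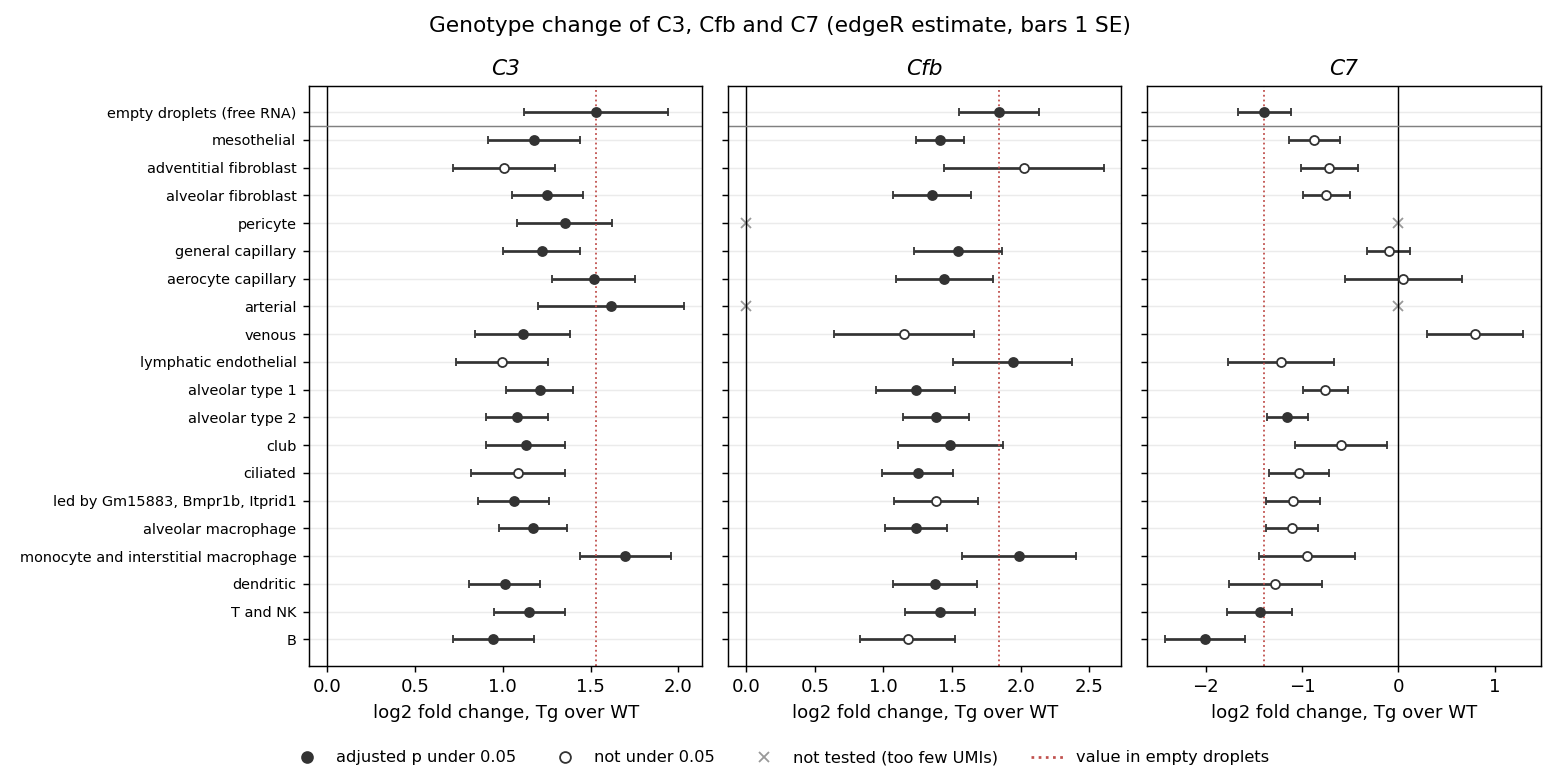
Log2 difference (VEcad-TRF2DN-Tg over WT mice, edgeR estimate with bars of 1 SE) of C3, Cfb and C7 in the empty droplets and in each class, with filled points where the adjusted p was under 0.05, open points where it was not, and crosses where the class was not tested. C3 and Cfb lie above 0 in every class tested, C7 below 0 in 15 of 17, and the empty droplets (dotted line) lie on the same side as most classes.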

How the data were processed

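snRNA-seq libraries (10x Genomics) of the lungs of 2 WT and 2 VEcad-TRF2DN-Tg mice were read as the UMI count matrices the authors deposited, whole numbers per gene and barcode, not normalized. The submitters' processing notes name Cell Ranger 6.1.1 and mm10, and the study's methods state that intronic reads were counted. No cell annotation was used. Barcodes with at least 1500 UMIs were scored on marker lists, seed barcodes gave a profile for each class, and each barcode was assigned in 2 rounds by likelihood as a mixture of a class and the free RNA of its mouse, with complement and mitochondrial genes left out. This rule was chosen after the files were seen, and 5764 nuclei lay near its marker cut, the class led by Gm15883 not counted. That class took the nuclei given to the club profile that failed the cut on club markers. Barcodes with markers of more than 1 class, the likely doublets, were left out (2.0% to 5.0%), no doublet caller was run, and classes needed 10 nuclei in every mouse.

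The count sums per mouse and class were tested with edgeR 4.0.16 (quasi-likelihood, TMM, filterByExpr, R 4.3.3), adjusted over all genes of a class at a threshold of 0.05, with DESeq2 1.42.0 as an alternative. Free RNA was subtracted as the empty droplet profile times a share estimated per mouse and class from genes of other cells, and the remainder rounded. Differences over all genes had medians of -0.018 to 0.042 log2 units within classes and 0.039 in the empty droplets.

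All 9 members are named. Of the other complement genes, those with an adjusted p under 0.05 in a class are named, at most 4 per class by size, and in the closing section others chosen after their values were seen; some genes are not reported here. The 3 genes most like each member are named, of genes with at least 100 UMIs. The members and lists were chosen with earlier results of these data known. Total UMIs per library ran from 125261739 to 182014706, and intervals cover counting error only. Gene positions are from GENCODE (GRCm38). Replicate numbers were checked as pairs: the correlation of deviations of same-numbered mice had a median of 0.079 over classes and empty droplets, so no block was used.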

Additional observations from a re-analysis of the deposited data

Results flagged for a closer look

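In 6 reported pairs of a complement gene and a class, the change between genotypes differed from the mean change of the other classes by a test of that difference. Of all gene and class pairs 0.247% passed this test in either direction. C1qa gave the only pair among the 171 pairs of members: its change in monocytes and interstitial macrophages was 1.504 log2 units above that of the other classes (SE 0.31, adjusted p = 0.0426, edgeR quasi-likelihood test), where it stood at 23.6 and 101 CPM in WT mice and 80.6 and 79.2 CPM in VEcad-TRF2DN-Tg mice. The adjusted p was 0.908 without VEcad-TRF2DN-Tg mouse 1 and 0.0671 without VEcad-TRF2DN-Tg mouse 2, the contrast could not be estimated without WT mouse 2 or after subtraction of free RNA, and free C1qa in WT mouse 2, at 177 CPM, was the highest of the 4 libraries. The part of that library in the difference was not tested.

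In the other pairs the genotype change, not the level, was below the mean change of the rest of the classes. For Serping1 this difference in change was -1.82 log2 units in alveolar fibroblasts, -1.67 in adventitial fibroblasts, -1.11 in mesothelial nuclei and -0.72 in ciliated cells. For C2 it was -0.84 in mesothelial nuclei. All but Serping1 in alveolar fibroblasts depended on single mice, and none of these contrasts could be estimated after subtraction of free RNA.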

How the results depend on the processing

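The counts of classes called moved with the free RNA, the filter on low counts and single mice. After subtraction of free RNA, 1 of 13 classes tested was called for C3 against 16 of 19, 0 of 3 for Cfb against 13 of 17 and 0 of 13 for C7 against 3 of 17, and 0 pairs against 1 differed in their change, that pair being one that could not then be estimated. Over edgeR fits that left out 1 mouse (the lone mouse of a group is then taken to vary like the other group) the counts ran from 4 to 17 for C3, 1 to 14 for Cfb, 0 to 7 for C7, 0 to 29 against 0 for the C1q chains lower in VEcad-TRF2DN-Tg mice (1 for C1qa and 3 for C1qb were higher without WT mouse 2), 0 to 4 for members called in the empty droplets and 0 to 2 for pairs whose change differed. DESeq2 gave 8 classes for Cfb and 5 for C7, nuclei with at least 2500 UMIs gave 8 for Cfb and 1 for C7, and no filter on low counts gave 10 for C7 and 18 for the C1q chains. Replicate numbers did not pair the mice, and a fit with the replicate number as a block called 6 classes for C7 and 7 lower for the C1q chains. Droplets from 100 to under 300 UMIs called 1 member against 3, C3 being the only one that could be tested. Calls of members higher in a class stayed within 1.5 times of 20 in every alternative run for them.

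Thinning lowered the mean share of nuclei with a UMI from 90.1% to 78.7% for C7, 81.5% to 56.0% for C3, 20.8% to 9.65% for C1qb, 11.98% to 4.54% for C3ar1, 5.61% to 2.57% for Masp1 and 42.7% to 30.3% for Cd55 in the class of each. Directions that turned were all of uncalled differences save C7 in alveolar type 2 cells, at 0.33 after subtraction. Leaving out 1 mouse gave -0.084 to 0.59 for Cd55 in B cells, turned without WT mouse 2. In monocytes and interstitial macrophages it gave -0.36 to 0.67 for C1qb, turned without VEcad-TRF2DN-Tg mouse 1 (-0.36) or WT mouse 1 (-0.20), and -0.28 to 0.69 for C3ar1, turned without VEcad-TRF2DN-Tg mouse 2 (-0.094) or WT mouse 1 (-0.28). There C1qb was -0.22 with at least 2500 UMIs, and C3ar1 was -0.14 at the higher marker cut and -0.046 without the filter. In the empty droplets it gave -1.91 to 0.98 for C1qa and -1.98 to 0.98 for C1qc, both above 0 without WT mouse 2, and -0.66 to 1.86 for C1qb, below 0 without WT mouse 1. Against the other classes, the change of C3 in mesothelial nuclei ran from -0.29 to 0.27, above 0 without VEcad-TRF2DN-Tg mouse 2 (0.22) or WT mouse 1, and that of C7 in alveolar fibroblasts from -0.42 to 0.23, above 0 without VEcad-TRF2DN-Tg mouse 1. The causes were not tested. Low counts limit Masp1 and C3ar1, which rest on 42 and 77 UMIs in their highest class.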

Other observations

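Other complement genes also differed between classes, and the genes below were chosen after their values were seen. Hc, which encodes C5, and C6, the partner of C7 in the pore, were highest in alveolar type 2 cells. Hc stood there at 1605, 1286, 1290.4 and 1269.5 CPM in WT mice 1 and 2 and VEcad-TRF2DN-Tg mice 1 and 2, 2.51 log2 units above the mean of the other classes (SE 0.064, adjusted p = 9.0e-47, edgeR quasi-likelihood test), and at least 3.02 times the empty droplets of its mouse. C6 stood at 187, 185, 151 and 140.3 CPM, 1.89 log2 units above the others. Its log2 difference between genotypes was not called in any of the 18 classes tested (-1.25 to 0.28, 6 at an unadjusted p under 0.05 in edgeR, 0 called by DESeq2), and without WT mouse 2 it was called lower in 3.

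Fibroblasts held Colec12, a scavenger receptor of the collectin family, at 1171, 788, 756 and 833 CPM in alveolar fibroblasts (3.13 log2 units above the other classes, SE 0.096). Csmd1, a membrane regulator, stood at 846, 1257, 275 and 874 CPM in adventitial fibroblasts (6.62 log2 units above, SE 0.16). Mesothelial nuclei were the highest class in C2 (2.12 log2 units above the others), C4b (1.70) and C1ra (1.43), beside C3 and Cfb. The lowest ratio to the empty droplets of the same mouse was 1.12 for C2, 0.824 for C4b and 0.746 for C1ra. C4b and C1ra were thus not above free RNA in every mouse. Receptors were highest in leukocytes. Cr2 stood at 78.0, 149, 123 and 76.7 CPM in B cells, and Itgam at 118, 468, 264 and 266 CPM and Vsig4 at 6.74, 81.5, 31.0 and 19.01 CPM in monocytes and interstitial macrophages.

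In the free RNA WT mouse 2 was also the highest library for 3 genes found in macrophages, chosen after their values were seen, but not for the summed markers of alveolar or interstitial macrophages. Fcna was listed at 0, 86.9, 11.5 and 19.5 CPM in the empty droplets, Vsig4 at 0, 20.02, 0.873 and 2.57 CPM and Itgam at 15.7, 82.3, 11.7 and 18.5 CPM.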
